A study of Mus musculus with 4 samples.

Results

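Aminoacyl-tRNA synthetases attach each amino acid to its tRNA, and 36 genes of this family were followed in mouse embryonic stem (ES) cells depleted of Tex10. They were chosen by gene name, 20 for the cytosolic enzymes and 16, with names ending in 2, for the mitochondrial ones. Of the 22739 named genes of the series, 33 were synthetases with a row of their own (19 cytosolic, 14 mitochondrial). The other 3 (Aars, Tars2 and Vars2) appeared only in rows shared with other genes, and a shared row gives no value for the synthetase alone. The cells were of the CCE line, derived from 129SV mice, and grew in 15% serum with leukemia inhibitory factor on gelatin. The control group carried a short hairpin RNA against luciferase (shLuci), which has no mouse counterpart, and the other group one against Tex10 (shTex10), each with 2 libraries of poly(A)-selected RNA. By its title, the series is about a role of Tex10 at super-enhancers in pluripotent cells, and the libraries show which transcripts change on its knockdown. All libraries come from a single cell line, and effects of a hairpin other than through Tex10 cannot be told apart from those of Tex10 loss.

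A synthetase activates its amino acid with ATP and transfers it to the matching tRNA, which the ribosome then uses. Most organelle enzymes are made from separate nuclear genes and imported into mitochondria, whereas Gars and Kars each encode the enzyme for both compartments. In the cytosol, several synthetases sit with scaffold proteins in the multisynthetase complex. When uncharged tRNA builds up, the kinase encoded by Eif2ak4 promotes translation of the transcription factor ATF4, which is known to activate many cytosolic synthetase genes together with genes of amino acid synthesis and transport.

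In shTex10, 15.7% of the Tex10 transcript was left (79.7 ± 3.44 FPKM in shLuci, 12.5 ± 1.21 FPKM in shTex10, mean ± SD, n = 2 each). FPKM are fragments scaled by transcript length and by the library's mapped fragments, so levels can be compared between genes. The named rows summed to between 613642 and 632067 FPKM in shLuci and between 525878 and 537692 FPKM in shTex10. FPKM keep no read totals, and depth could only be roughly estimated, relative to shLuci replicate 1, at 83.5% to 94.0% for the other libraries. The 6 ES cell markers (Pou5f1, Nanog, Sox2, Zfp42, Esrrb, Utf1) summed to between 2261 and 2405 FPKM in shLuci and between 1468 and 1563 FPKM in shTex10. The 5 fibroblast markers summed to between 28.3 and 36.7 FPKM in shLuci and between 31.3 and 42.3 FPKM in shTex10, 3 matched markers of blood and endothelium to between 1.12 and 1.20 FPKM in all libraries, and 6 of differentiated progeny to between 6.91 and 8.53 FPKM. These sums hide members that went opposite ways. Pax6 fell from 6.18 to 0.673 FPKM and Krt5 rose from 0.0857 to 3.16 FPKM among the progeny markers, where Cdx2, below the filter, read 0.396 and 1.46 FPKM. Among the fibroblast markers Col1a2 fell from 12.7 to 7.37 FPKM, and Col1a1, at 15.8 and 25.4 FPKM, did not pass. None of the matched markers was at 0. The part of these markers in the results was not tested.

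Most cytosolic synthetase transcripts fell in shTex10, and one, Cars, rose. The 19 cytosolic genes tested held 16 that fell (84.2%), 1 that rose and 2 (Dars and Iars) that did not pass, against 31.8% lower and 19.8% higher among the 11883 genes tested (limma on log2(FPKM + 1), Benjamini-Hochberg adjusted p under 0.05). The 14 mitochondrial genes held 5 that fell (35.7%), 1 that rose and 8 that did not pass. The median log2 change, shTex10 minus shLuci, was -0.57 for the cytosolic and -0.20 for the mitochondrial genes, beside -0.14 for all genes tested. Relative to all genes these medians were -0.44 and -0.06. Both shTex10 libraries lay below both shLuci libraries for 18 of 19 cytosolic and 9 of 14 mitochondrial genes, against 48.1% of all genes tested. Exact permutation of 2 against 2 libraries cannot reach a two-sided p below 0.33, and the labels do not say whether replicates were grown apart, so the p-values cover only variation among these libraries, which may be technical. In bulk RNA, fewer cells of a kind and less RNA per cell cannot be told apart.

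The calls depended on the scaling between libraries. When the named genes were made to sum to one value in every library, 9 cytosolic genes were lower and 1 higher, 1 mitochondrial gene was lower and 2 were higher, and the mitochondrial median turned to 0.015. The median of all genes was then 0.06, and 62.9% of all calls were higher, in place of 38.3% with FPKM as deposited. Of the 11883 genes tested, 1906 were lower and 3234 higher after this rescaling, in place of 3779 lower and 2350 higher. With the same sum over all rows, unnamed ones included, 0 of the 33 members were called in either direction by limma, and 7.51% of all genes were. Unnamed rows held 56.3% of the FPKM in shLuci replicate 1 and 68.8% to 71.6% in the other libraries. The cytosolic median was -0.57 under the all-row sum. Relative to all genes, it lay between -0.43 and -0.25 over the 4 scalings tried. Without the filter on low values, 11 of the 23 calls were lost, among them Vars, Sars and Eprs (limma adjusted p = 0.0581, 0.0593 and 0.0725).

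**Figure D1:**
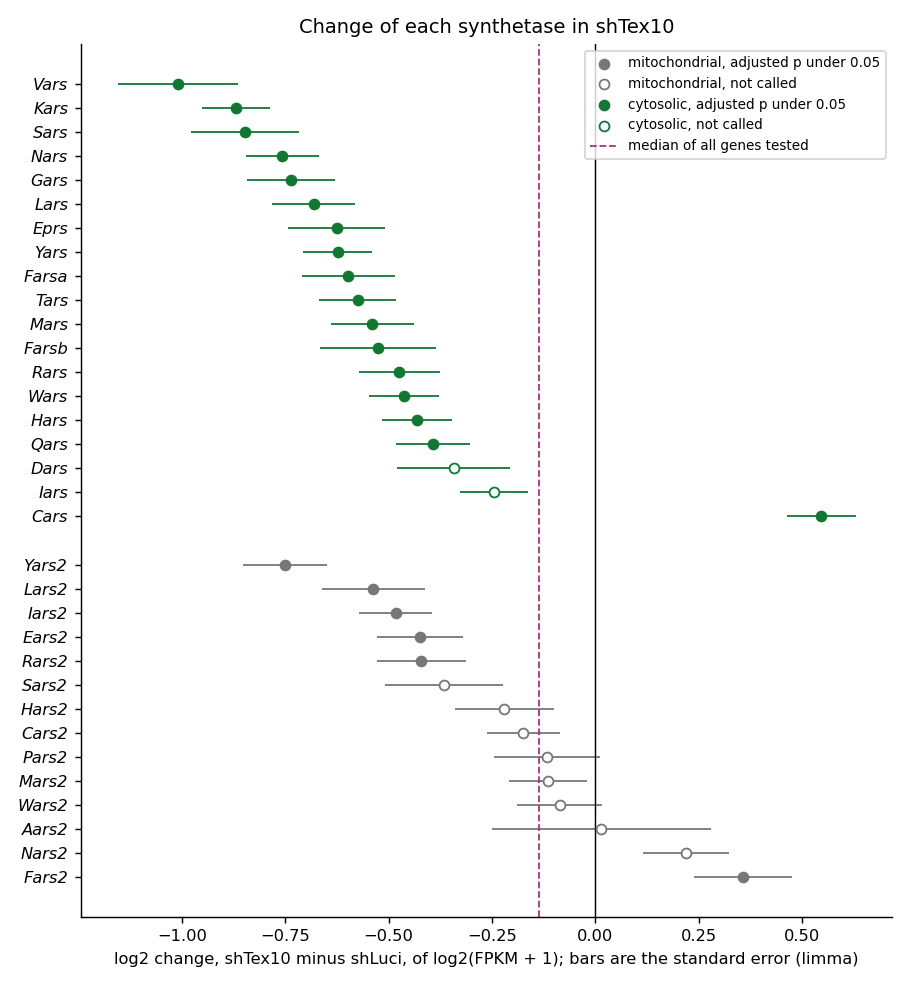
Log2 change (shTex10 minus shLuci, of log2(FPKM + 1)) of each cytosolic and mitochondrial synthetase gene with its standard error; filled points passed limma's test and the dashed line is the median of all genes tested (-0.14). Of the 19 cytosolic points, 18 lie left of 0 and Cars lies at 0.55, whereas the 14 mitochondrial points run from -0.75 to 0.36.

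Median levels differed between the compartments before any Tex10 knockdown, although the ranges overlapped. In shLuci the cytosolic genes ranged from 21.7 FPKM for Wars to 248 FPKM for Kars, with a median of 88.9 FPKM. The mitochondrial genes ranged from 2.61 FPKM for Wars2 to 448 FPKM for Lars2, with a median of 15.96 FPKM, and 9 of 14 lay under 20 FPKM. None of the cytosolic genes did. Kars, the lysyl enzyme, stood above every other cytosolic gene in both shLuci libraries, and Wars, the tryptophanyl enzyme, stood below them. Between these ends the order was close: Dars, Nars, Gars and Eprs had means of 145, 138, 130 and 123 FPKM, and neighbours in this order overlapped in their libraries.

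**Figure D2:**
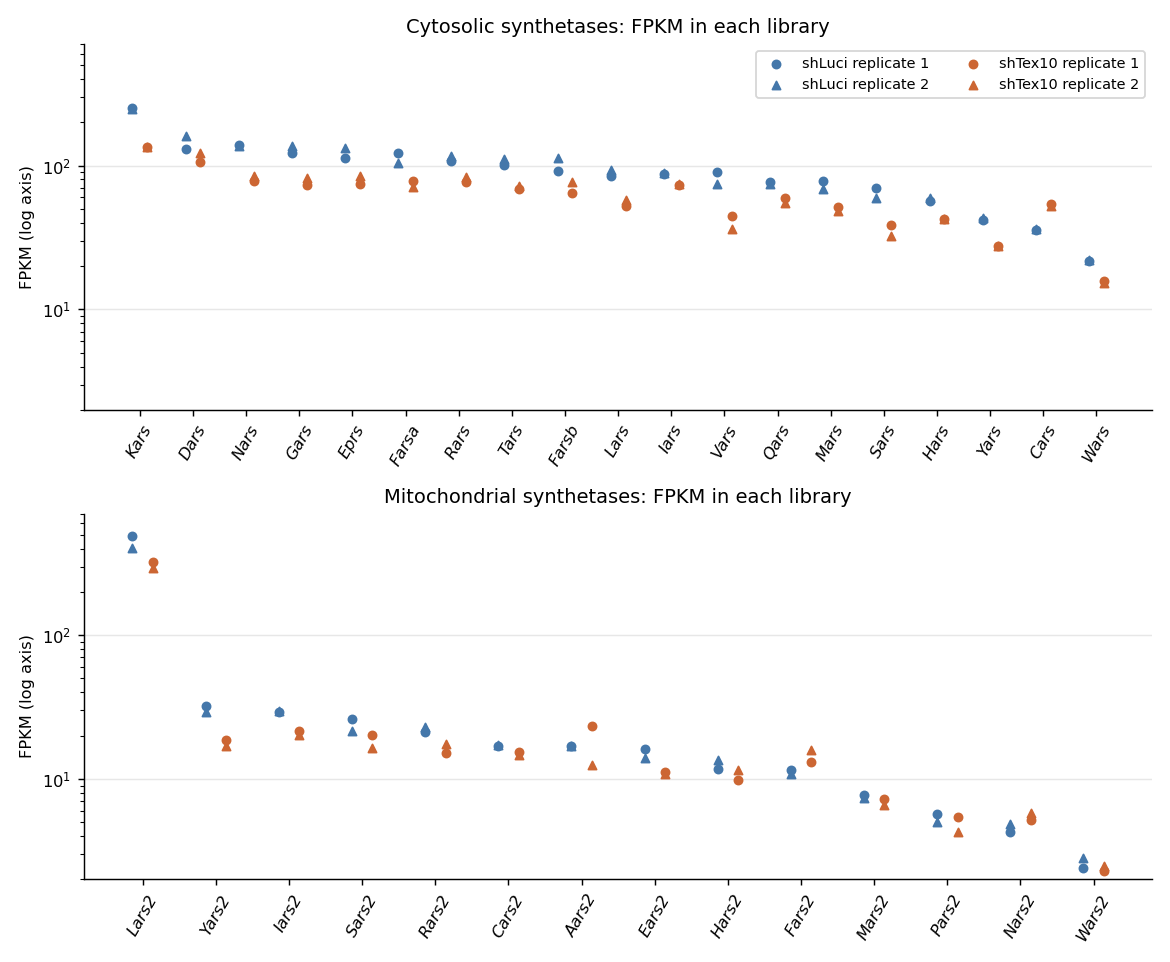
FPKM (log axis) of each synthetase gene in each library, cytosolic genes above and mitochondrial genes below, ordered by the shLuci mean; circles are replicate 1 and triangles replicate 2. Lars2 stands apart from the other mitochondrial genes at 291 to 490 FPKM, and Cars is the cytosolic gene whose shTex10 libraries lie above shLuci.

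The multisynthetase complex has 8 of these enzymes, of which 6 fell and 0 rose (31.8% and 19.8% of all genes tested), with a median log2 change of -0.51. The complex holds the enzymes for lysine, leucine, methionine, glutamine, arginine, aspartate and isoleucine and the joint enzyme for glutamate and proline (Eprs). Kars (mm9 chromosome 8, 114517339 to 114535205) measured 251 and 246 FPKM in shLuci and 135 and 135 FPKM in shTex10. The replicates nearly coincided and the groups lay far apart, a log2 change of -0.87 (SE 0.08, Benjamini-Hochberg adjusted p from limma 0.000886).

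Lars, the leucyl enzyme that also serves in leucine sensing, measured 84.9 and 93.0 FPKM in shLuci and 52.2 and 58.0 FPKM in shTex10, a log2 change of -0.68 (SE 0.10, limma adjusted p = 0.00349). Eprs (chromosome 1, 187186973 to 187252234) went from 123 ± 14.0 to 79.5 ± 6.74 FPKM (n = 2 each), which is -0.63 on the log2 scale (SE 0.12). The remaining 3 that fell did so by less. Mars, the methionyl enzyme, fell by 0.54 on the log2 scale, Rars, the arginyl enzyme, by 0.47, and Qars, the glutaminyl enzyme, by 0.39. All 3 lost their call under quantile normalization and after the rescaling over named genes, Mars and Rars also without the filter, and Qars also without shLuci replicate 1 and without shTex10 replicate 2. Outside the all-row sum, limma's adjusted p reached 0.0672 for Mars, 0.123 for Rars and 0.206 for Qars. The Mars row shares its locus (chromosome 10, 126727848 to 126748842) with Ddit3, which rose, and whether reads were counted by strand is not given.

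The complex members that did not pass were Iars and Dars. Iars, for isoleucine, measured 86.7 and 88.2 FPKM in shLuci and 73.2 and 74.1 FPKM in shTex10, so its groups did not overlap. Its log2 change was -0.24 (SE 0.08, limma adjusted p = 0.0507), and it passed without the filter on low values (0.0246). Dars, for aspartate, measured 129 and 161 FPKM in shLuci and 106 and 122 FPKM in shTex10, with a log2 change of -0.34 (SE 0.14, limma adjusted p = 0.0825). Its shLuci libraries differed from each other by more than the nearest libraries of the groups did. Dars passed without shLuci replicate 1 (limma adjusted p = 0.0119) and without shTex10 replicate 2 (0.0242).

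Outside the complex, 10 of 11 cytosolic genes fell, against 31.8% of all genes, and Cars rose, with a median log2 change of -0.60. Vars, the valyl enzyme (chromosome 17, 35132880 to 35153274), had the largest change of the family. It measured 89.9 and 74.7 FPKM in shLuci and 44.8 and 36.1 FPKM in shTex10, a log2 change of -1.01 (SE 0.14, limma adjusted p = 0.00317). The value sums 2 rows at the same locus: one read 75.4 and 60.5 FPKM in shLuci and 38.9 and 30.7 FPKM in shTex10, the other 14.5, 14.2, 5.82 and 5.38 FPKM in the same order. Both rows were lower in both shTex10 libraries.

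Sars, the seryl enzyme (chromosome 3, 108227781 to 108248177), measured 69.7 and 59.1 FPKM in shLuci and 38.5 and 32.3 FPKM in shTex10, a log2 change of -0.85 (SE 0.13). Nars, the asparaginyl enzyme, measured 139 and 136 FPKM in shLuci and 78.4 and 84.1 FPKM in shTex10, a log2 change of -0.76 (SE 0.09, limma adjusted p = 0.00162). Gars, which charges glycine in both compartments, measured 123 and 138 FPKM in shLuci and 73.2 and 82.4 FPKM in shTex10, a log2 change of -0.74 (SE 0.11). In each of these genes every shTex10 library lay below every shLuci library. Gars and Kars, the genes that serve both compartments, thus had 59.7% and 54.5% of their shLuci mean.

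Yars, the tyrosyl enzyme, fell from 42.7 ± 1.03 to 27.4 ± 0.0134 FPKM and Tars, the threonyl enzyme, from 105 ± 6.86 to 70.4 ± 2.68 FPKM (n = 2 each). Hars, for histidine, and Wars fell by 0.43 and 0.46 on the log2 scale. Both lost their call after the rescaling over named genes, and Hars also under quantile normalization. The Yars row shares its locus with C77080, at 11.3 to 14.5 FPKM in shLuci and 17.9 to 22.7 FPKM in shTex10. The row that names Aars together with Exosc6, a subunit gene of the RNA exosome, measured 185 and 175 FPKM in shLuci and 115 and 104 FPKM in shTex10, with a log2 change of -0.71 (SE 0.10, limma adjusted p = 0.00260). It is not counted among the members.

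Phenylalanyl-tRNA synthetase is the family's enzyme of unlike subunits, the alpha subunit from Farsa and the beta subunit from Farsb. Farsa measured 122 and 104 FPKM in shLuci and 77.9 and 70.6 FPKM in shTex10, and Farsb measured 91.8 and 112 FPKM in shLuci and 64.0 and 76.9 FPKM in shTex10. Both fell, by 0.60 and 0.52 on the log2 scale. The ratio of Farsa to Farsb was 1.33 and 0.933 in shLuci and 1.22 and 0.919 in shTex10. It differed between replicate numbers more than between groups. Both lost their call under quantile normalization, after the rescaling over named genes and without the filter, and Farsb also without shLuci replicate 2.

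Cars, the cysteinyl enzyme (chromosome 7, 150743134 to 150785995), went against the other cytosolic genes. It measured 35.8 and 36.2 FPKM in shLuci and 53.7 and 52.3 FPKM in shTex10, which is 147% of the shLuci mean. The libraries of each group lay close together and the groups did not overlap (log2 change 0.55, SE 0.08, limma adjusted p = 0.00386). Its call was lost in 1 of 16 alternative settings, the same sum over all rows, as were those of Gars, Kars, Lars, Nars, Tars, Yars and Yars2.

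Synthetases fall into 2 structural classes with unlike folds of the catalytic domain, and genes fell in both. The cytosolic class I genes gave 7 falls and 1 rise among 9 (median log2 change -0.47), and class II gave 8 falls and 0 rises among 9 (median -0.60). Eprs carries both folds and was left out. Of 11 cytosolic genes known as ATF4 targets, 9 fell and 1 rose (median -0.62), and of the 8 others 7 fell and 0 rose (median -0.50). All these counts stand against 31.8% lower and 19.8% higher among all genes tested. No test of a difference between these groups was made.

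ATF4 acts through a composite element whose core is TGATGNAA, and this motif was searched on both strands of the 300 bases around the transcription start (250 before, 50 after) in RefSeq promoters of build GRCm38.p6. Of the 36 genes, 27 matched a promoter by symbol or older symbol. The motif was in 5 of these, all cytosolic (5 of 13 cytosolic, 0 of 14 mitochondrial), and in 4.51% of 27025 genes. An E-box of the form CACGTG, the site type bound by Myc, was in 5 of the 27 (4 cytosolic, 1 mitochondrial) and in 8.09% of all genes, and none of these matches overlapped one of the first motif. The stretches with the first motif are shown to let the element be compared between genes. Of the 4 genes with a row of their own that hold it, 3 fell and Iars did not pass. The share lower was 84.2% among all cytosolic genes and 31.8% among all genes tested. Each stretch is printed on the gene's strand with the motif, or its reverse complement, in capitals. The Aars promoter holds it also 9 bases after the start.
Aars, chr8:111033700-111033767, plus strand, motif from 112 bases before the start: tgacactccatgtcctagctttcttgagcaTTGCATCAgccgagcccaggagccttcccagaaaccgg
Gars, chr6:55037941-55038000, plus strand, motif from 30 bases before the start: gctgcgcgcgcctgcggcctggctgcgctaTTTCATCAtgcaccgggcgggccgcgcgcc
Tars, chr15:11399659-11399703, minus strand, motif from 15 bases before the start: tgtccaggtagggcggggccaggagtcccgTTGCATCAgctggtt
Iars, chr13:49682126-49682155, plus strand, motif from 7 bases after the start: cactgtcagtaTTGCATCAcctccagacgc
Yars, chr4:129189895-129189924, plus strand, motif from 3 bases after the start: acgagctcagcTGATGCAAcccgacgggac
Gars, Tars and Yars had log2 changes of -0.74, -0.57 and -0.62, and Iars one of -0.24. A match of these letters is a description and does not show binding.

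The mitochondrial genes moved less evenly. Lars2, the mitochondrial leucyl enzyme (chromosome 9, 123276057 to 123371782), was the most abundant transcript of all members. It measured 490 and 406 FPKM in shLuci and 324 and 291 FPKM in shTex10, with a log2 change of -0.54 (SE 0.12, limma adjusted p = 0.0153). The groups did not overlap, but the call was lost under quantile normalization (limma adjusted p = 0.337), after the rescaling over named genes and without the filter.

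Yars2 (chromosome 16, 16303057 to 16309733) measured 32.1 and 29.1 FPKM in shLuci and 18.6 and 16.9 FPKM in shTex10, a log2 change of -0.75 (SE 0.10, limma adjusted p = 0.00265), the largest fall among the mitochondrial genes. Iars2 fell from 29.4 ± 0.459 to 20.8 ± 1.01 FPKM, Ears2, the mitochondrial glutamyl enzyme, from 15.0 ± 1.56 to 10.9 ± 0.239 FPKM, and Rars2 from 22.1 ± 1.07 to 16.3 ± 1.74 FPKM (n = 2 each). All 3 lost their call after the rescaling over named genes. Ears2 also lost it without the filter and without shLuci replicate 1. Rars2 also lost it under quantile normalization, without the filter, without shLuci replicate 2 and without shTex10 replicate 1. The Iars2 locus is shared with the row of Rab3gap2, at 8.28 to 10.2 FPKM.

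Fars2, the mitochondrial phenylalanyl enzyme, was the mitochondrial gene that rose. It measured 11.5 and 10.8 FPKM in shLuci and 13.2 and 16.01 FPKM in shTex10, a log2 change of 0.36 (SE 0.12, limma adjusted p = 0.0491). Its call was lost without shLuci replicate 1, without shLuci replicate 2 and without shTex10 replicate 2. It was also lost without the filter (limma adjusted p = 0.167) and with a filter at a mean of 5 FPKM (0.0501). Nars2 also had both shTex10 libraries above shLuci, at 4.30 and 4.84 against 5.20 and 5.77 FPKM, and did not pass (log2 change 0.22, SE 0.10, limma adjusted p = 0.128). It passed after the rescaling over named genes (adjusted p = 0.0215).

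Among the other mitochondrial genes, Sars2 had a log2 change of -0.37 and did not pass (limma adjusted p = 0.0785), at 26.3 and 21.5 FPKM in shLuci and 20.1 and 16.5 FPKM in shTex10. It passed without shLuci replicate 2 (adjusted p = 0.0132) and without shTex10 replicate 1 (0.00922). Aars2 had shLuci values of 16.9 and 16.9 FPKM and shTex10 values of 23.2 and 12.5 FPKM, on either side of shLuci. Its log2 change was 0.01 (SE 0.26), and leaving out shTex10 replicate 1 gave -0.41 (limma adjusted p = 0.0371) whereas leaving out shTex10 replicate 2 gave 0.44 (0.0248). Hars2, Cars2, Pars2, Mars2 and Wars2 did not pass, with log2 changes between -0.22 and -0.09. The rows that name Tars2 with Ecm1 and Rprd2, and Vars2 with Gtf2h4, did not pass either (log2 changes -0.09 and -0.20).

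Set against each other by amino acid, the cytosolic gene exceeded the mitochondrial one in every library in 11 of 12 pairs (both phenylalanyl subunits were paired with Fars2). The exception was leucine, where the ratio of Lars to Lars2 was 0.173 and 0.229 in shLuci and 0.161 and 0.199 in shTex10. The ratio was lower in both shTex10 libraries in 7 pairs, higher in 2 and overlapped in 3. Both phenylalanyl pairs are among the 7 and share Fars2, so they do not count separately. Among single genes tested, 48.1% had both shTex10 libraries below both shLuci libraries, and 3364 of 11883 had them above. No such share was computed for other pairs of genes, so the pair counts are descriptions. The ratio was largest for asparagine, with Nars to Nars2 at 32.4 and 28.2 in shLuci and 15.1 and 14.6 in shTex10.

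For phenylalanine the ratio of Farsa to Fars2 went from 10.1 ± 0.663 to 5.16 ± 1.06 and that of Farsb to Fars2 from 9.19 ± 1.67 to 4.83 ± 0.0441 (n = 2 each). For serine it went from 2.70 ± 0.0703 to 1.93 ± 0.0296. The reverse was seen for cysteine, from 2.11 ± 0.00423 to 3.54 ± 0.0704, and for isoleucine, from 2.97 ± 0.0108 to 3.55 ± 0.200. Arginine and tyrosine, like leucine, overlapped between groups. A ratio within a library does not depend on the scaling of that library by a single factor.

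**Figure D3:**
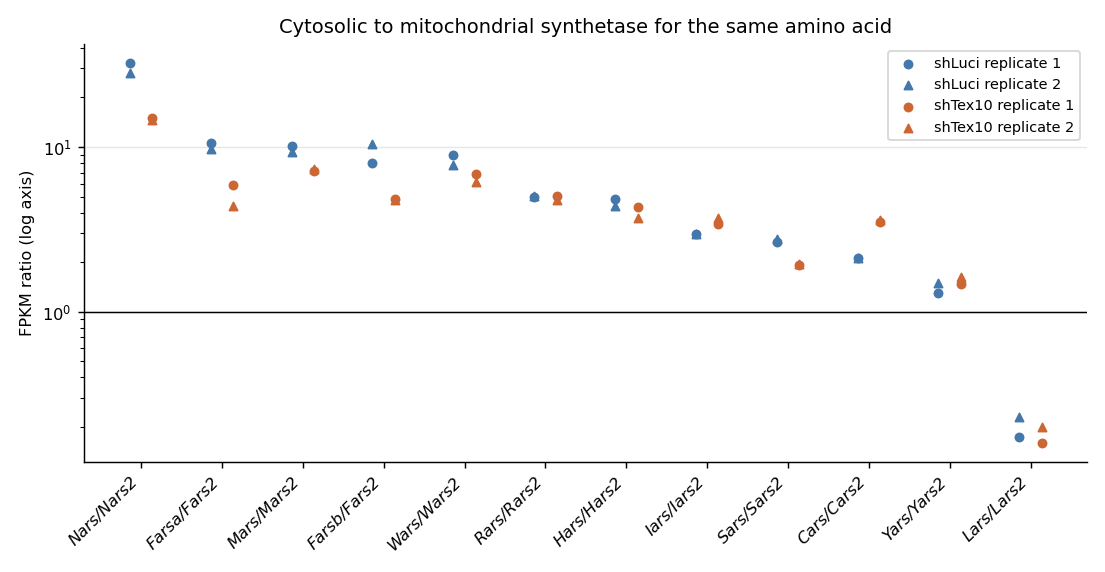
Ratio of the FPKM of the cytosolic to the mitochondrial synthetase gene for the same amino acid (log axis) in each library; circles are replicate 1, triangles replicate 2, and the line marks equal levels. Nars/Nars2 and the phenylalanyl pairs show the widest gaps between groups, Cars/Cars2 lies higher in shTex10, and Lars/Lars2 is the pair below the line.

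Summed over genes, the 19 cytosolic transcripts reached 1819 and 1876 FPKM in shLuci and 1214 and 1253 FPKM in shTex10, or 66.8% of the control mean. The 14 mitochondrial transcripts reached 692 and 601 FPKM in shLuci and 492 and 446 FPKM in shTex10, or 72.6%. Lars2 made up most of that sum. Without it the other 13 reached 202 and 195 FPKM in shLuci and 168 and 156 FPKM in shTex10, or 81.4%. As a share of all named FPKM, the cytosolic genes went from 0.296% and 0.297% to 0.231% and 0.233%, and the groups did not overlap. The 13 mitochondrial genes other than Lars2 made up 0.0329% and 0.0309% in shLuci and 0.0320% and 0.0289% in shTex10, and the groups overlapped. Without Lars2, the ratio of the cytosolic to the mitochondrial sum was 8.997 and 9.60 in shLuci and 7.22 and 8.06 in shTex10. With Lars2 it overlapped between groups (2.63 and 3.12 against 2.47 and 2.81).

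The related lists are read against all genes tested, of which 31.8% were lower and 19.8% higher. The list for handling charged tRNA in the cytosol had 14 genes tested, 8 of them lower, 0 higher and 6 not called (median log2 change -0.40). The scaffold genes of the multisynthetase complex, named here after their values were seen, included Aimp2, which fell from 60.8 ± 2.49 to 42.1 ± 0.329 FPKM, and Eef1e1, which fell from 102 ± 8.98 to 60.1 ± 11.3 FPKM. Aimp1 did not pass (92.1 ± 15.96 and 70.4 ± 6.29 FPKM, limma adjusted p = 0.0724). Eef1d, a subunit gene of the exchange factor for elongation factor 1, had the smallest p in this list and fell by 0.78 on the log2 scale. Aarsd1, related to the editing domain of the alanyl enzyme, fell by 0.51, and Dtd1, which clears D-amino acids from tRNA, by 0.73.

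Among 30 genes of tRNA processing and modification, 21 were lower (median -0.46). Pop1, a subunit gene of RNase P and RNase MRP, fell from 35.3 ± 1.62 to 18.9 ± 0.437 FPKM, and Nsun2, a tRNA cytosine methyltransferase gene, from 124 ± 1.43 to 74.2 ± 1.07 FPKM (n = 2 each). Trmt6, of the adenosine methyltransferase of tRNA, and Tsen15, of the splicing endonuclease, fell by 0.79 and 0.71 on the log2 scale.

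The list for mitochondrial translation lay closer to the background: 5 of 13 genes were lower, 0 higher and 8 not called, and the median of -0.14 was that of all genes. Gfm2, which acts in ribosome recycling in mitochondria, fell from 23.2 ± 0.854 to 13.3 ± 0.509 FPKM, and Tufm, the mitochondrial elongation factor that carries charged tRNA, from 70.3 ± 4.25 to 47.2 ± 5.57 FPKM. Tsfm, the exchange factor for Tufm, fell by 0.37 and lost its call when any library was left out (limma adjusted p 0.0547 to 0.0669). Tufm and Tsfm both lost their call after the rescaling over named genes and under quantile normalization, and Tufm also without the filter.

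Genes of the amino acid response were found in both directions. Among the 31 tested there were 14 lower, 7 higher and 10 not called (median log2 change -0.23), against 31.8% lower and 19.8% higher among all genes, so the count of higher genes was near the background. The transcript of Atf4 itself rose from 85.9 ± 0.508 to 137 ± 4.24 FPKM (n = 2 each), which limma put at 0.67 on the log2 scale (SE 0.08, adjusted p = 0.00208). Rises were also found for the stress factor genes Atf3, 4.98-fold, and Ddit3, 1.88-fold, for Ddit4, an inhibitor of mTOR signalling, 5.41-fold, for Trib3 (1.58-fold), and for the transporter genes Slc7a11 (1.37-fold) and Slc38a2, from 114 to 171 FPKM. The call of Slc7a11 was lost under quantile normalization, without shLuci replicate 1, without shLuci replicate 2 and without shTex10 replicate 2. Without the filter, the calls of Slc7a11, Trib3 and Slc38a2 were lost.

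The genes that fell included Slc7a3, a transporter of cationic amino acids, from 109 ± 1.21 to 24.5 ± 0.233 FPKM, and Psat1, of serine synthesis, from 146 ± 3.73 to 50.3 ± 2.40 FPKM. Genes named after their values were seen fell alike: Phgdh, the first enzyme of serine synthesis, with a log2 change of -1.67, Mthfd2, a mitochondrial folate enzyme gene, with -1.14, and Slc7a5, a transporter of large neutral amino acids, with -1.04. Eif2ak4, the kinase gene named in the background, fell from 5.78 ± 0.165 to 3.26 ± 0.208 FPKM. Asns, the asparagine synthetase gene, did not pass, at 159 ± 3.00 and 157 ± 0.879 FPKM (log2 change -0.02, SE 0.08, limma adjusted p = 0.869). Of 10 cytosolic synthetases known as ATF4 targets, Cars left out, 9 were called lower and 0 higher, while Cars was called higher. The 8 other cytosolic synthetases gave 7 lower and 0 higher, against 31.8% lower and 19.8% higher among all genes tested.

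**Figure D4:**
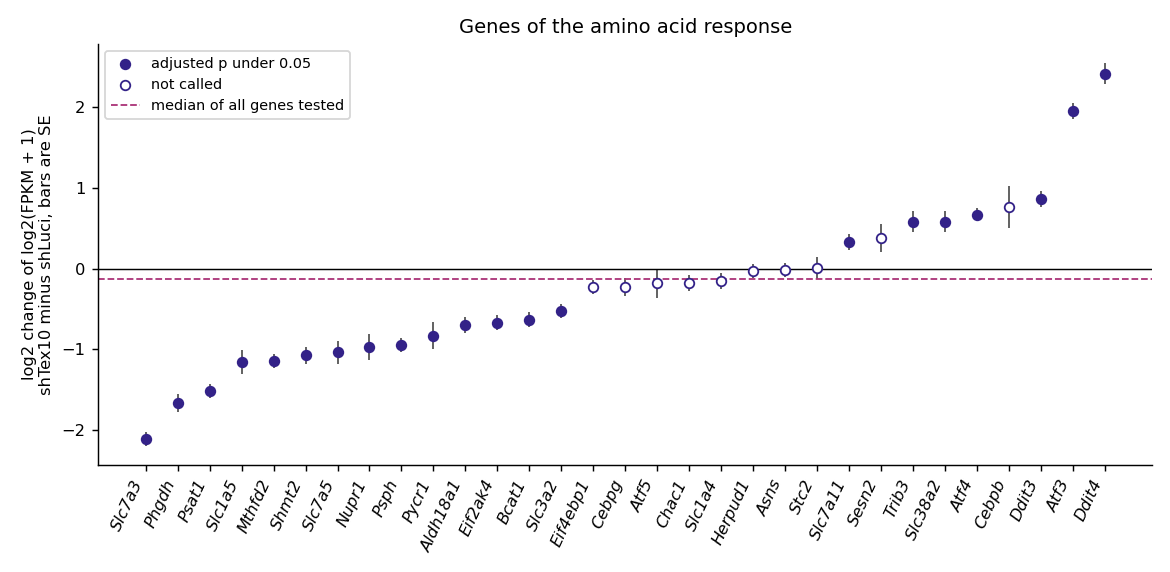
Log2 change (shTex10 minus shLuci, of log2(FPKM + 1)) with its standard error for the 31 tested genes of the amino acid response, in order of the change; filled points passed limma's test and the dashed line is the median of all genes tested. Slc7a3, Phgdh and Psat1 lie at the low end, and Atf4, Ddit3, Atf3 and Ddit4 at the high end.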

How the data were processed

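RNA-seq of 4 libraries (2 shLuci, 2 shTex10; 100-bp single-end reads of poly(A) RNA) was analysed from FPKM that the authors deposited per library without pooling, per the file headers. Cufflinks 2.1.1, TopHat2 2.0.10, Bowtie2 2.1.0 and the build mm9 are listed in the submitters' processing notes. Options, annotation and strand use are not given there. The 7329 unnamed rows stayed out of the test, and rows sharing a name (445 names) were summed. Genes with a mean of at least 1 FPKM (11883, all 33 members with a row among them) entered limma 3.58.1 (R 4.3.3) as log2(FPKM + 1), with no replicate block and eBayes using a trend of variance with level, and p-values were adjusted over all of them by Benjamini-Hochberg, threshold 0.05. The fit was tested on simulated data. A fold change on this scale understates the change of low genes.

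The members and all gene lists were chosen with earlier results of these data known, so list counts are descriptions, read against the share of all genes called. Named genes were the members, Tex10, Atf4, and in each related list the 4 with the smallest p and those called against the list's main direction. Some genes that this rule names are not reported here. Other named genes were chosen after their values were seen. Promoter sequences and symbols are from RefSeq (GRCm38.p6), and no coordinates were moved between builds. Alternatives were other pseudocounts, filters, scalings, eBayes settings, the replicate block, the highest row per name, and leaving out each library.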

Additional observations from a re-analysis of the deposited data

How the results depend on the processing

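Among 33 members, 23 were called, and 0 of these lost the call with pseudocounts of 0.1 or 0.5, median scaling, eBayes without trend or robust, the replicate block, or the highest row per gene name. Cytosolic genes called lower numbered 10 without a filter, 10 under quantile normalization, 9 with the same sum over named genes and 0 with the same sum over all rows, where 0 were also called higher. Mitochondrial genes called lower numbered 2 without a filter, 3 under quantile normalization, 1 with the named-gene sum, 0 with the all-row sum and 8 with the replicate block. Those called higher numbered 0 without a filter, 0 at a mean of at least 5 FPKM, 2 with the named-gene sum, 0 with the all-row sum and 2 with the replicate block. Over all genes, 2378 of 22739 were lower and 2201 higher without a filter, and 1292 of 8542 were higher at a mean of at least 5 FPKM. Of 11883 genes, 2908 were lower under quantile normalization, 1906 with the named-gene sum, 237 with the all-row sum and 5709 with the block. Higher genes among these 11883 numbered 3234 with the named-gene sum, 655 with the all-row sum and 3210 with the block. Without 1 library each, 15 to 16 cytosolic genes were lower and 1 higher, 4 to 6 mitochondrial genes were lower and 0 to 1 higher. The cytosolic median moved to -0.33 under quantile normalization and -0.35 with the named-gene sum, and lay between -0.64 and -0.51 without 1 library each. The mitochondrial median was -0.13 with median scaling, turned to 0.015 with the named-gene sum, and lay between -0.29 and -0.18 without 1 library each. Counting the 3 rows that name several genes, an alternative chosen after seeing the data, left these counts and medians within the limits set for an unchanged result.

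Calls over all genes numbered 6129 with FPKM as deposited, 4579 without a filter, 4412 at a mean of at least 5 FPKM and 892 with the all-row sum. In genes that were not called the sign turned with the named-gene sum for Cars2 (0.040), Mars2 (0.085), Pars2 (0.072), Wars2 (0.076) and the rows naming Tars2 (0.14) and Vars2 (0.026), under quantile normalization for the Tars2 row (0.13), and without 1 library each for Pars2 (-0.26 to 0.020, the latter without shTex10 replicate 2) and Aars2 (-0.41 to 0.44). Same-numbered libraries deviated together from their group means (r = 0.331 across 11883 genes), but 2 pairs without a stated shared origin do not establish pairing. The block raised the calls over all genes from 6129 to 8919. The cause of these shifts was not tested, and the depth behind single values is unknown.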
